A study of Homo sapiens with 5 samples.

Results

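SUPT5H, CCNT1 and CTR9 encode parts of the machinery that holds RNA polymerase II (RNAPII) shortly after initiation, releases it and keeps it moving through genes. They were 3 of the 9767 genes with an analysed transcription start site (TSS), chosen by gene name from the deposited TSS table, and each had 1 listed TSS with values in all libraries. ChIP-seq with antibodies to the RPB1 subunit mapped RNAPII in RPE1, an established line of human retinal pigment epithelium immortalised with telomerase. Every line, WT included, was untreated, carried inducible Cas9 (iCas9) and lacked both p53 and the puromycin resistance gene (p53/puro-dKO). On this background the series had 3 samples of WT, 1 of CFAP20-KO and 1 of CFAP20/CCNC-dKO, the last lacking CFAP20 and CCNC together. CCNC encodes cyclin C, which belongs to the Mediator kinase module. The labels do not say whether a knockout line is a single clone, and the TSS windows came from a single library of each genotype. No difference between genotypes therefore has a replicate check, and no p-value is given. The labels name different RPB1 antibodies for WT and for both knockouts, so in any comparison with WT the antibody and the genotype cannot be told apart.

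As background, RNAPII at many human genes pauses a short way downstream of the start. SUPT5H (SPT5) forms the DSIF complex with SUPT4H1; together with NELF it holds the paused polymerase, and after phosphorylation it travels with the elongating enzyme. CCNT1 (cyclin T1) is the regulatory subunit of P-TEFb, the CDK9 kinase that phosphorylates SPT5, NELF and the RPB1 tail to release the pause. CTR9 is a scaffold subunit of the PAF1 complex, which rides with elongating RNAPII. The values below are RNAPII occupancy over the genes for these proteins, not the amount or activity of the proteins.

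The 3 genes differ in how well the listed TSS fits the annotated start, and the results at SUPT5H turn on this. SUPT5H (ENSG00000196235.13; chromosome 19, plus strand, GRCh38/hg38) was listed at position 39441643, the first exon of a GENCODE transcript, while the RefSeq start at 39445582 lies 3939 bp further downstream. 7 distinct GENCODE starts fall within 150 bp of that RefSeq start, and further GENCODE starts lie 2071 and 5487 bp upstream of the listed TSS. The whole 10-kb window is therefore inside the annotated SUPT5H gene, which spans 39436156 to 39476670. CCNT1 (ENSG00000129315.9; chromosome 12, minus strand) was listed at 48716899, in a first exon and 192 bp upstream of its RefSeq start. CTR9 (ENSG00000198730.7; chromosome 11, plus strand) was listed at 10750987, outside the annotated gene and 259 bp upstream of both its RefSeq start and its nearest GENCODE start. No other GENCODE gene overlapped the 3 windows. In the deposited table the WT BrU-seq value, a measure of nascent transcription in the gene body whose scale is not given in the sources used here, was 4.35 for SUPT5H, 4.94 for CCNT1 and 1.51 for CTR9, against a median of 0.590 over 6306 TSSs with a value. All 3 genes were thus above the median of nascent transcription in WT, at percentiles 83.4, 85.1 and 67.0.

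The sequences of the 250 bases before each RefSeq start (RefSeq, GRCh38.p14) are shown because they fix where the promoter lies relative to the listed TSS. For SUPT5H the stretch is chr19:39445332-39445581 on the plus strand, which is inside the window counted as gene body from the listed TSS. For CCNT1 it is chr12:48716708-48716957 on the minus strand, and for CTR9 it is chr11:10750996-10751245 on the plus strand. Both of these overlap the promoter window of the listed TSS. Capitals mark matches to the motifs described after the sequences, each written 5′ to 3′ on the gene's strand.
SUPT5H: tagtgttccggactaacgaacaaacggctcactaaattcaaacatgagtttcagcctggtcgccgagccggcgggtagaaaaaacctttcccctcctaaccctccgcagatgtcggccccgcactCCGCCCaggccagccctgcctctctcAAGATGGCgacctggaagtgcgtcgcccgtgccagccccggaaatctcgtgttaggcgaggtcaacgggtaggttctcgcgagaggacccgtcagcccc
CCNT1: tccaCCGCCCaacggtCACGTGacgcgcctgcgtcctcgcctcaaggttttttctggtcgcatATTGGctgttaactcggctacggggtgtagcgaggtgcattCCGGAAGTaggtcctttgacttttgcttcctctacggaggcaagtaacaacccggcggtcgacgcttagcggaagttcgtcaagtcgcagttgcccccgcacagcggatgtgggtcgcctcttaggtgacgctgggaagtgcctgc
CTR9: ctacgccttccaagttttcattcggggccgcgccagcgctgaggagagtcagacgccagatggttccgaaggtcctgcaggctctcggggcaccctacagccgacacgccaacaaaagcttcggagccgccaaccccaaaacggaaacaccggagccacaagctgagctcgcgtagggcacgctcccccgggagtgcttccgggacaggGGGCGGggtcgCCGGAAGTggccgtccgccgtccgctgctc

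All 3 promoters were rich in G and C, with 60.8% GC in SUPT5H, 59.2% in CCNT1 and 66.8% in CTR9, against a median of 58% over 35116 promoters of the same length. They held 22, 24 and 26 CpG dinucleotides, an observed-to-expected ratio of 0.969, 1.10 and 0.934. A search on both strands covered 6 letter strings, each named in this paragraph with its share of all promoters, and no 2 matches overlapped. GGGCGG, a GC box found in 42.6% of promoters, was present in all 3, on the minus strand in SUPT5H (shown as CCGCCC) and CCNT1. CCGGAAGT, an ETS-type string found in 3.42% of promoters, was present in CCNT1 from 146 to 139 bases before the RefSeq start and in CTR9 from 30 to 23 bases before it. AAGATGGC, a YY1-type string found in 1.36% of promoters, was present in SUPT5H from 99 to 92 bases before the start. CCNT1 also held CACGTG, found in 6.34% of promoters, and CCAAT on the minus strand (shown as ATTGG), found in 32.0%. TATAAA, found in 10.7% of promoters, was in none of the 3 windows. A match is a run of letters and not a measured binding site.

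Depth limited what could be seen at single genes. Each deposited value was a whole multiple of a library step, from which read pairs were recovered: 3349919 for WT, 420806 for CFAP20-KO and 590356 for CFAP20/CCNC-dKO over all TSS windows. The knockouts had 12.6% and 17.6% of the WT depth. Intervals below are exact 95% intervals from these read pairs and cover counting error only. Stretches left by isolated read pairs were about 146 bp long in WT, 299.7 bp in CFAP20-KO and 319.9 bp in the double knockout, so knockout profiles are smoother. Neither CFAP20 nor CCNC had a listed TSS (0 each), so the labelled knockouts could not be checked. Of 8 retinal pigment epithelium markers, 4 had a TSS, and WT promoter density was 0.387 at RLBP1, 0.418 at RPE65, 0.540 at MITF and 1.68 at OTX2, beside a library median of 0.407. The 3 blood markers with a TSS were between 0.263 and 0.330, ALB of liver was 0.354 and COL1A1 of mesenchymal cultures 0.837. SNAP25, a neuron marker, was 1.05 in WT and stood above 3 of the 4 pigment epithelium markers in that library.

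At the listed TSS, SUPT5H had a higher RNAPII density in both knockout libraries than in WT, and CCNT1 and CTR9 had a lower one in both. Of these ratios to WT, only those of SUPT5H and CCNT1 in CFAP20/CCNC-dKO had an interval that excludes 1. Promoter density is the mean signal from 200 bp upstream to 500 bp downstream of the listed TSS, on the deposited spike-in scale. SUPT5H promoter density was 0.923 for WT, 1.76 for CFAP20-KO and 1.95 for CFAP20/CCNC-dKO, from 49.7, 11.4 and 19.3 read pairs. The ratio to WT was 1.90 (0.859 to 3.56) for CFAP20-KO and 2.11 (1.14 to 3.55) for CFAP20/CCNC-dKO. Only the second interval excludes 1, and the ratio of 1.11 (0.508 to 2.61) between the knockouts does not separate them.

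CCNT1 promoter density was 2.28 for WT, 1.26 for CFAP20-KO and 1.10 for CFAP20/CCNC-dKO, from 123, 8.17 and 10.9 read pairs. WT was highest and the knockouts were close together. The ratio to WT was 0.554 (0.228 to 1.10) for CFAP20-KO and 0.482 (0.235 to 0.896) for CFAP20/CCNC-dKO, so again only the double knockout had an interval that excludes 1. In the rank among all TSSs, CCNT1 stood at percentile 93.1 for WT, 78.1 for CFAP20-KO and 82.6 for CFAP20/CCNC-dKO. The ratio of CFAP20-KO to WT varied with the window. Its log2 value of -0.83 became -0.42 with a window of -500 to 1000 bp and -1.04 with -100 to 300 bp. Just upstream of the promoter window the ratio to WT was 1.39 (0.602 to 2.83) for CFAP20-KO and 0.940 (0.391 to 1.84) for CFAP20/CCNC-dKO. At the RefSeq start it was 0.701 (0.282 to 1.38) and 0.504 (0.218 to 0.972). These intervals overlap. The highest CFAP20-KO point lay outside the promoter window.

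CTR9 promoter density was 2.43 for WT, 2.10 for CFAP20-KO and 1.47 for CFAP20/CCNC-dKO, from 130, 13.6 and 14.6 read pairs. The order was WT, CFAP20-KO, CFAP20/CCNC-dKO, and no pair of neighbours in it was separated beyond counting error. The ratio to WT was 0.864 (0.476 to 1.56) for CFAP20-KO and 0.605 (0.340 to 1.07) for CFAP20/CCNC-dKO. Its percentile among all TSSs was 94.3, 89.6 and 89.3.

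**Figure D1:**
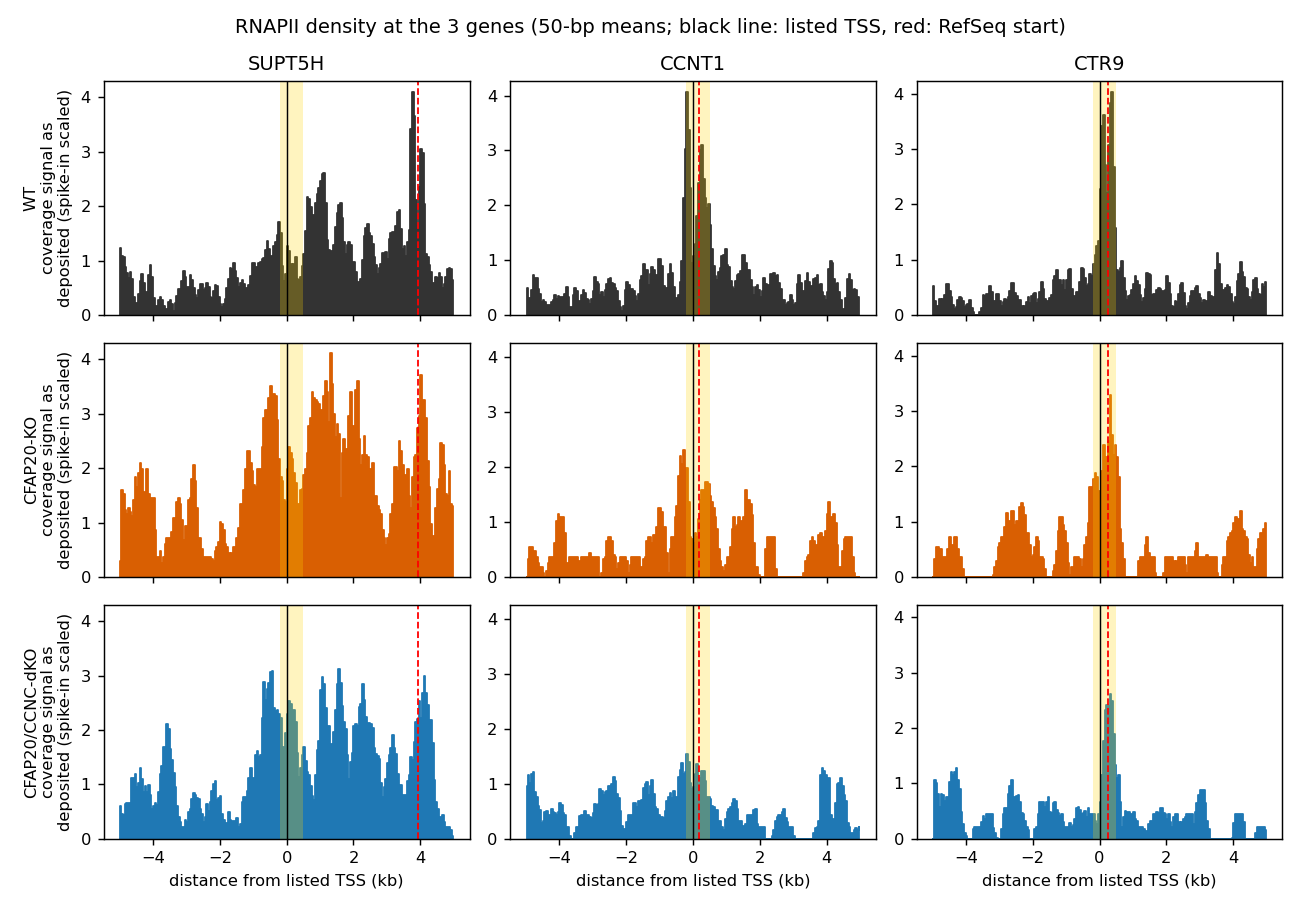
RNAPII coverage signal (vertical axis, spike-in scaled, 50-bp means) from 5 kb upstream to 5 kb downstream of the listed TSS (horizontal axis, kb) for the 3 genes (columns) in 1 library of each genotype (rows); the shaded band is the promoter window, the black line the listed TSS and the dashed red line the RefSeq start. The CTR9 peak sits next to both lines in all libraries. The highest WT point of SUPT5H lies 3760 bp downstream of the listed TSS, 179 bp upstream of the RefSeq start.

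Among all genes, shifts of this size were common. The median log2 promoter ratio over the 4891 genes above the median density was 0.13 in CFAP20-KO against WT and -0.24 in CFAP20/CCNC-dKO against WT. Relative to that median ratio, 15.8% of genes stood at least 1.5-fold above and 16.6% at least 1.5-fold below in CFAP20-KO against WT, and SUPT5H was 1.70-fold higher. CCNT1 stood at 0.513 of the median ratio there, and CTR9 at 0.790, short of the 1.5-fold mark. In CFAP20/CCNC-dKO against WT, 18.8% of genes stood at least 1.5-fold above and 16.7% below, with SUPT5H 2.44-fold higher, CCNT1 at 0.583 and CTR9 at 0.724 of the median ratio. Between the knockouts, 20.8% of genes stood at least 1.5-fold above and 17.7% below in the double knockout. There SUPT5H stood at 1.46, CCNT1 at 1.16 and CTR9 at 0.931 of the median ratio, all within 1.5-fold. Without centring on the median ratio the backgrounds were uneven: 11.4% stood above and 28.1% below in CFAP20/CCNC-dKO against WT, and 10.7% and 38.5% in CFAP20/CCNC-dKO against CFAP20-KO.

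At SUPT5H the ratios of the knockouts to WT were larger upstream of the listed TSS than at the RefSeq start, with intervals that overlap. From -4500 to -2000 bp of the listed TSS, density was 0.434 for WT, 1.00 for CFAP20-KO and 0.853 for CFAP20/CCNC-dKO, a ratio to WT of 2.31 (1.39 to 3.69) and 1.96 (1.24 to 3.00). From -1000 to -200 bp it was 1.15, 2.65 and 2.26, a ratio of 2.30 (1.35 to 3.89) and 1.96 (1.21 to 3.14). From 500 to 2000 bp downstream it was 1.73, 2.86 and 1.87, where the ratio was 1.65 (1.16 to 2.36) for CFAP20-KO and 1.08 (0.754 to 1.53) for CFAP20/CCNC-dKO. In the window from 200 bp upstream to 500 bp downstream of the RefSeq start, the 3 libraries had nearly the same density, 1.98 for WT, 2.25 for CFAP20-KO and 2.17 for CFAP20/CCNC-dKO. The ratio to WT at the RefSeq start was 1.14 (0.636 to 2.03) and 1.10 (0.675 to 1.79). These last intervals include 1 and also include the ratios found upstream. The difference between windows was not tested, and the placement on the RefSeq start was chosen after the profiles were seen.

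The highest point of SUPT5H fell at a different place in each library, but in the knockouts its place is not fixed at this depth. In WT it was 4.12 high and lay 179 bp upstream of the RefSeq start. In CFAP20-KO it was also 4.12 high but lay 1320 bp downstream of the listed TSS, and in CFAP20/CCNC-dKO it was 3.21 high and lay 450 bp upstream of the listed TSS. Both knockouts had a peak of nearly the same height by the RefSeq start, 3.72 high and 81 bp downstream of it in CFAP20-KO, and 3.01 high and 171 bp downstream of it in CFAP20/CCNC-dKO. The gap between the peaks is about 1 read pair in each knockout library. In WT the highest point near the listed TSS was 2.67, against 4.12 by the RefSeq start. At CCNT1 the highest point lay 180, 290 and 160 bp upstream of the listed TSS in WT, CFAP20-KO and CFAP20/CCNC-dKO, with heights of 4.06, 2.35 and 1.63. A second CCNT1 peak on the other side of the listed TSS is visible in the WT profile. At CTR9 the highest point lay 101, 61 and 71 bp downstream of the RefSeq start, with heights of 4.20, 3.29 and 2.66.

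CCNT1 and CTR9 showed the usual promoter-high profile, and SUPT5H did not when measured from its listed TSS. Gene body density is the mean from 2000 to 5000 bp downstream of the listed TSS. The ratio of promoter to gene body density was 4.56 for WT, 3.08 for CFAP20-KO and 3.06 for CFAP20/CCNC-dKO at CCNT1, with intervals of 3.53 to 5.96, 1.09 to 8.51 and 1.31 to 7.32 that overlap. At CTR9 it was 5.42, 4.42 and 5.47, with intervals of 4.14 to 7.07, 2.01 to 10.7 and 2.51 to 14.1. Over 4396 TSSs above the median density in genes of at least 5000 bp, the library medians were 2.39, 2.41 and 1.90. These medians include the pseudocount described below. With it for the members too, CCNT1 stood at percentile 85.7, 61.3 and 77.0 and CTR9 at 92.2, 80.6 and 96.1. Both CCNT1 knockout intervals and the CTR9 interval in CFAP20-KO include the library median. At SUPT5H the ratio was 0.693, 0.923 and 1.29. The SUPT5H value has the RefSeq start inside its body window and is no measure of pausing.

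Gene body density was 1.33, 1.90 and 1.51 at SUPT5H in WT, CFAP20-KO and CFAP20/CCNC-dKO. The ratio to WT was 1.43 (1.05 to 1.93) for CFAP20-KO, the only gene body interval of the 3 genes that excludes 1, and 1.13 (0.848 to 1.48) for CFAP20/CCNC-dKO. At CCNT1 it was 0.501, 0.410 and 0.359, and the ratios to WT of 0.820 (0.386 to 1.48) and 0.718 (0.383 to 1.21) include 1. At CTR9 it was 0.448, 0.475 and 0.268, with ratios to WT of 1.06 (0.541 to 1.88) and 0.598 (0.280 to 1.08). In the gene body, 9.87% of 4395 genes stood at least 1.5-fold below the median ratio in CFAP20/CCNC-dKO against WT, and CTR9 was among them. It was also among the 11.8% that were lower in CFAP20/CCNC-dKO against CFAP20-KO, where its body ratio of 0.565 (0.223 to 1.33) includes 1. With a body window of 1000 to 3000 bp the log2 ratio of CTR9 was -0.18 in place of -0.66 in CFAP20/CCNC-dKO against WT, and between the knockouts it turned from -0.74 to 0.35. No other gene body value of the 3 genes passed 1.5-fold in either direction. The share of genes above 1.5-fold was 5.03% in CFAP20/CCNC-dKO against WT and 13.2% in CFAP20/CCNC-dKO against CFAP20-KO, and in CFAP20-KO against WT 7.3% were above and 12.8% below.

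**Figure D2:**
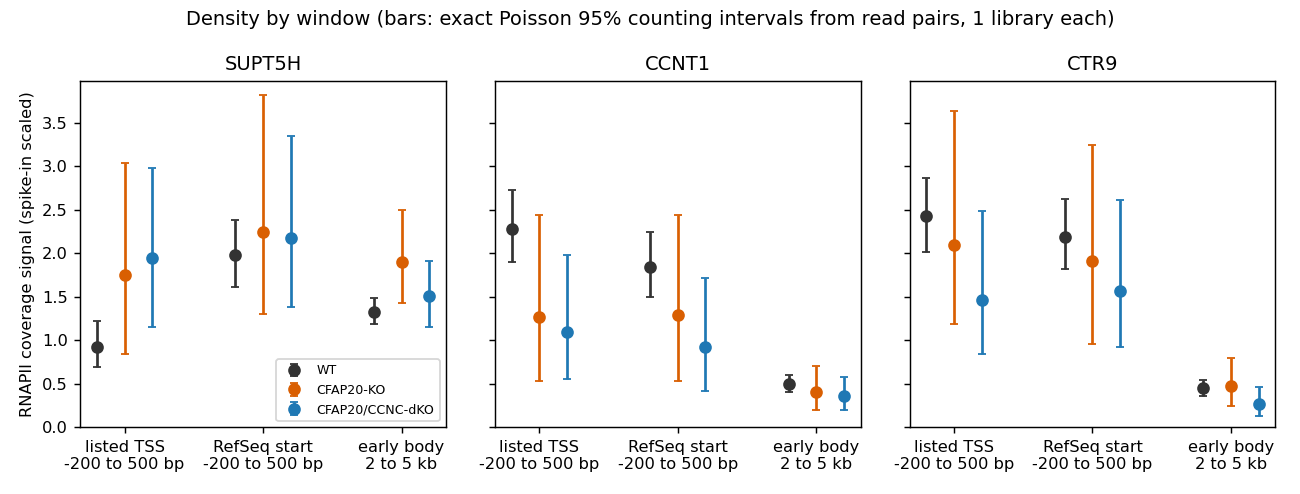
RNAPII coverage signal (vertical axis, spike-in scaled) of the 3 genes in the window of the listed TSS, the same window at the RefSeq start, and the gene body (horizontal axis), 1 point per library; bars are exact Poisson 95% counting intervals of each level. The SUPT5H points are apart at the listed TSS (0.923 in WT, 1.76 and 1.95 in the knockouts) and close at the RefSeq start (1.98, 2.25 and 2.17).

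The surroundings of SUPT5H had more RNAPII signal in both knockouts. Flank density is the mean 2000 to 4500 bp away from a listed TSS on both sides, given here over the library median. The 10 listed TSSs nearest to SUPT5H, all within 296 kb, had a median flank of 0.933 for WT, 1.66 for CFAP20-KO and 1.70 for CFAP20/CCNC-dKO, higher than in WT at 10 and 9 of the 10. Their flank was 1.81-fold and 1.86-fold that of WT on the deposited scale, beside 1.90-fold and 2.11-fold for SUPT5H at its listed TSS. Divided by this local flank, the SUPT5H ratio to WT was 1.05 and 1.13 at the listed TSS, and 0.626 and 0.592 at the RefSeq start. In the gene body it was 0.788 and 0.609, below 1 where the undivided ratios of 1.43 and 1.13 were above it. No counting interval was computed for the divided ratios, so whether they differ from 1 is not known.

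Around CCNT1 and CTR9 the flank differed less between libraries, over wider spans than at SUPT5H. The 10 TSSs nearest to CCNT1, all within 651 kb, had a median flank of 1.01, 1.25 and 1.10. It was higher than in WT at 8 of 10 in CFAP20-KO and at 4 of 10 in CFAP20/CCNC-dKO. For CTR9, with TSSs up to 1316 kb away, the values were 1.07, 1.03 and 1.14, higher at 3 and 7 of 10.

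The higher flank around SUPT5H ran over a stretch of chromosome 19 from 35228730 to 40226691. The stretch was set from these same flank values, as the run of listed TSSs around SUPT5H where the median over 11 neighbours was over 1.25-fold of WT in both knockouts, so its flank is a description. Over its 48 other TSSs the median flank was 0.976 for WT, 1.54 for CFAP20-KO and 1.63 for CFAP20/CCNC-dKO. The flank was higher than in WT at 47 of 48 TSSs in CFAP20-KO and at 45 in CFAP20/CCNC-dKO. Over 418 TSSs in the rest of the chromosome the medians were 0.963, 1.03 and 0.927, and the flank was higher than in WT at 228 and 194. Promoters in the stretch were also higher: the median promoter ratio to WT was 1.88 for CFAP20-KO and 1.42 for CFAP20/CCNC-dKO over 36 TSSs of the stretch above the median density, against 1.12 and 0.764 over 216 in the rest. The part of this regional difference in the SUPT5H values was not tested beyond the division by the local flank.

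**Figure D3:**
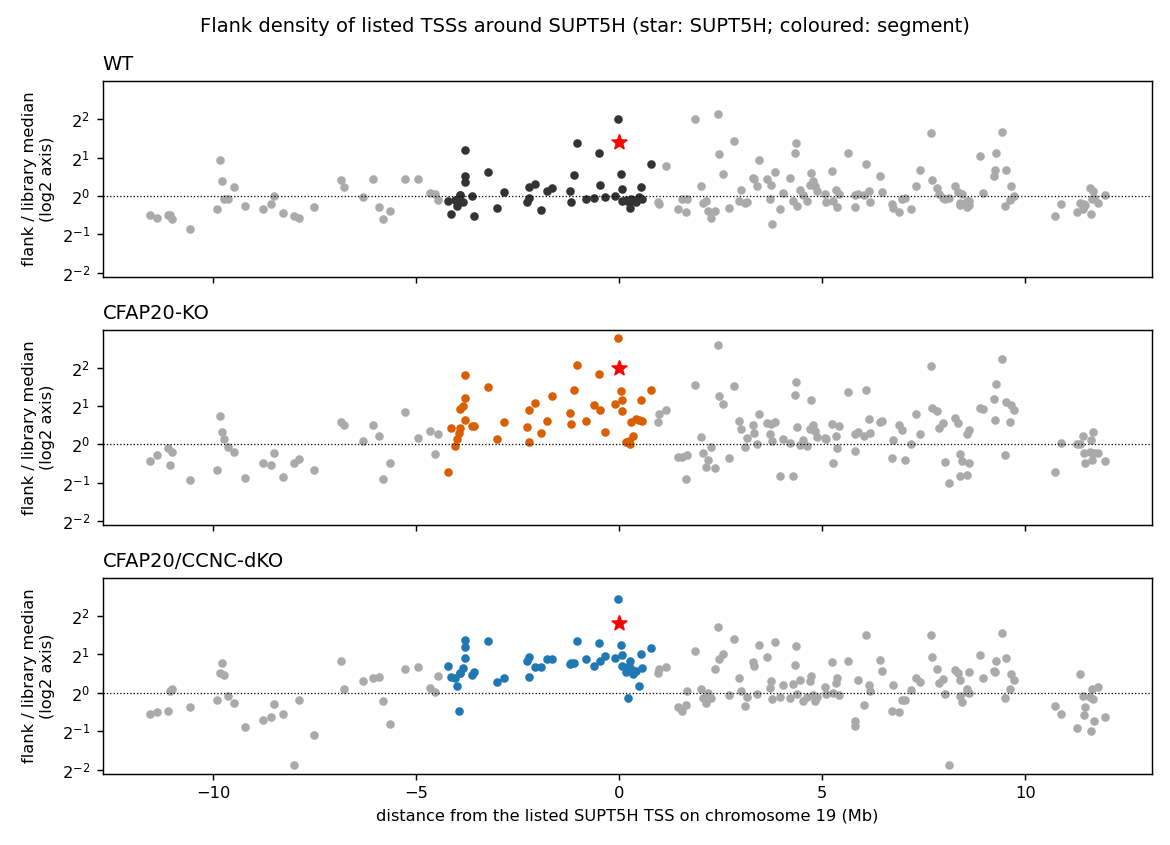
Flank density over the library median (vertical axis, log2 scale) of listed TSSs within 12 Mb of SUPT5H on chromosome 19 (horizontal axis, distance in Mb), 1 panel per library; the star is SUPT5H, coloured points lie in the stretch of higher flank and grey points outside it. The coloured points have a median of 0.976 for WT, 1.54 for CFAP20-KO and 1.63 for CFAP20/CCNC-dKO.

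The listed genes next to SUPT5H varied at their promoters. PLEKHG2, 29.1 kb upstream of the listed SUPT5H TSS, had a promoter density of 2.16 for WT, 4.00 for CFAP20-KO and 4.17 for CFAP20/CCNC-dKO. TIMM50, which encodes a subunit of the mitochondrial inner membrane import machinery and lies 38.8 kb downstream, had 1.57, 1.97 and 2.16. GMFG, 105 kb upstream, had 0.203, 0.467 and 0.250, and DLL3, a Notch ligand gene 57.3 kb downstream, had 0.318, 0.712 and 0.329. In these 4 genes CFAP20-KO was above WT at each promoter. PAPL, 357 kb upstream, had 0.341, 0.268 and 0.365, and SELV, 73.5 kb downstream, had 0.231, 0.222 and 0.626. Counting intervals were not computed for these neighbours. In CFAP20-KO the SUPT5H density of 1.76 came from 11.4 read pairs, so densities well below it rest on few.

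The nearest listed genes of CCNT1 and CTR9 were compared in the same way, though some lie far from the member. RND1, ARF3 and WNT10B lie 149, 241 and 255 kb from CCNT1. RP11-370I10.2, RP5-1057I20.2 and RP1-90J4.1 lie 433, 886 and 1302 kb from it. Toward higher coordinates from CCNT1, RND1 had a promoter density of 1.05, 1.06 and 0.987 in WT, CFAP20-KO and CFAP20/CCNC-dKO, ARF3 2.0, 2.24 and 1.16, and WNT10B 0.631, 0.601 and 0.830. None of these 3 was lower than WT in both knockouts by as much as CCNT1. Toward lower coordinates RP11-370I10.2 had 0.338, 0.433 and 0.264, RP5-1057I20.2 had 0.364, 0.113 and 0.374, and RP1-90J4.1 had 0.274, 0.990 and 0.388. Counting intervals were not computed for the neighbours. In CFAP20-KO the CCNT1 density of 1.26 came from 8.17 read pairs, so 0.113 at RP5-1057I20.2 rests on very few. The low densities given below have the same limit. Next to CTR9, RP11-685M7.3, 58.3 kb downstream, had 2.45, 2.30 and 2.40. MRVI1, 57.2 kb upstream, had 0.244, 0.0800 and 0.266. CTD-2003C8.2, 148 kb downstream, had 0.611, 1.21 and 0.259. The other neighbours of CTR9 varied less, with 0.621, 0.727 and 0.751 at RP11-318C2.1, 0.490, 0.402 and 0.511 at RP11-748C4.1, and 0.341, 0.392 and 0.299 at RP11-179A10.1.

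WT replicates 2 and 3 gave a spread for how RNAPII is distributed within a gene's window. Their signal was used around replication origins, which had been located by OK-seq (Okazaki fragments are sequenced), in 200-bp bins. SUPT5H and CTR9 lie in such windows, found by matching the profile of WT replicate 1, which is in both kinds of file (r = 0.980 and 0.982 over 48 bins, with 0.862 and 0.895 in the other orientation). In a check on 400 origins of known position, 400 were placed within 200 bp. The origin centres lie 5.13 kb upstream of the listed SUPT5H TSS and 5.51 kb upstream of that of CTR9, and CCNT1 was in 0 of the windows. Values are relative to the mean of the gene's own window, which removes library scale. The signal of replicates 2 and 3 was coarser. The smallest non-zero CTR9 bin was 0.0344, 0.119 and 0.159 in replicates 1, 2 and 3. No counting interval was computed for replicates 2 and 3. Counting error and variation between libraries therefore cannot be told apart in the WT spread. For the knockouts the TSS windows were averaged into bins of the same size.

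At the SUPT5H RefSeq start, relative density was 1.92, 2.14 and 2.75 in WT replicates 1, 2 and 3 (mean 2.27 ± 0.430, SD, n = 3), 1.37 for CFAP20-KO and 1.66 for CFAP20/CCNC-dKO. Both knockouts were below all 3 WT libraries. From -1000 to -200 bp of the listed TSS it was 1.07, 1.09 and 0.906 in WT (mean 1.02 ± 0.101, SD, n = 3), 1.48 for CFAP20-KO and 1.58 for CFAP20/CCNC-dKO, so both knockouts were above all 3 WT libraries. Within the window, the share of RNAPII was thus larger upstream and smaller at the RefSeq start in the 2 knockout libraries than in the 3 WT libraries, a pattern seen in the profiles before it was measured here. Counting error spans these gaps in part or whole. With 10-bp bins the value from -1000 to -200 bp was 1.11 (0.881 to 1.39) in WT replicate 1, 1.48 (0.945 to 2.25) in CFAP20-KO and 1.63 (1.10 to 2.34) in CFAP20/CCNC-dKO, and all of these intervals overlap. In the same bins the value at the RefSeq start was 1.91 (1.58 to 2.27) in WT replicate 1, 1.26 (0.739 to 2.07) in CFAP20-KO, from 15 of 157 read pairs, and 1.57 (1.02 to 2.34) in CFAP20/CCNC-dKO, from 22 of 187. After the profile of WT replicate 1 was smoothed to the stretch length of the double knockout, its value was 1.88. Whether stretch length has a part in the knockout values was not tested.

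At the listed SUPT5H TSS the WT libraries themselves differed, with the counting error of replicates 2 and 3 not measured. Relative density there was 0.928, 2.0 and 1.18 (mean 1.37 ± 0.561, SD, n = 3), and the knockouts, at 0.995 and 1.38, were within the WT range. From 500 to 2000 bp downstream WT gave 1.65, 0.653 and 1.19, and the knockouts 1.63 and 1.35 were again in that range. In the gene body window WT gave 1.31, 1.38 and 1.5, above both knockouts at 1.07 and 1.09. From -4500 to -2000 bp WT gave 0.422, 0.488 and 0.551, and the knockouts 0.552 and 0.609 were just above. The 10-kb window of SUPT5H as a whole was 2.47, 2.0 and 3.16 times the library median of origin windows in WT.

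At CTR9 the promoter stood within the WT spread in both knockouts. Promoter density relative to its window was 3.82, 2.62 and 3.69 in WT (mean 3.38 ± 0.657, SD, n = 3), 3.58 for CFAP20-KO and 3.10 for CFAP20/CCNC-dKO. The promoter-to-body ratio was 4.93, 3.14 and 9.18 in WT (mean 5.75 ± 3.10, SD, n = 3), 4.41 for CFAP20-KO and 5.26 for CFAP20/CCNC-dKO. Both knockouts were inside the WT range on both measures. From 500 to 2000 bp downstream WT gave 0.905, 1.07 and 0.953, with CFAP20/CCNC-dKO at 0.836 and CFAP20-KO at 0.415. Both knockout values are below all 3 WT libraries but rest on 9 and 5 read pairs, and with 10-bp bins that of CFAP20/CCNC-dKO, 0.922 (0.434 to 1.63), equals WT replicate 1. From -1000 to -200 bp WT gave 1.04, 1.13 and 1.51, and the knockouts were below all 3 at 0.916 and 0.864, from 4 and 5 read pairs. From -4500 to -2000 bp WT gave 0.453, 0.835 and 0.820, and the knockouts were above all 3 at 0.838 and 0.946, from 11 and 16 read pairs.

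**Figure D4:**
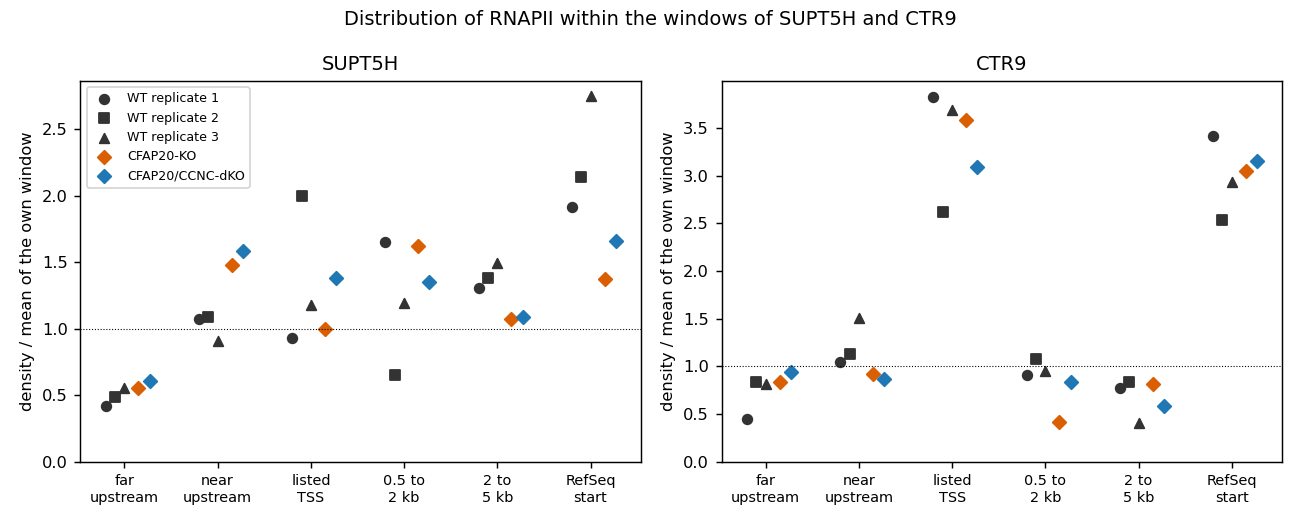
RNAPII density relative to the mean of the gene's own window (vertical axis) in 6 zones of SUPT5H and CTR9 (horizontal axis); dark symbols are WT replicates 1, 2 and 3 and diamonds the 2 knockout libraries. At the SUPT5H RefSeq start the knockouts (1.37 and 1.66) lie below all WT libraries (1.92 to 2.75), and at the CTR9 promoter (3.58 and 3.10) they lie between them (2.62 to 3.82).

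Other genes of the pathway were taken from a list of 43 elongation factor genes, of which 7 had an analysed TSS, all above the median density. Besides the 3 described, these were AFF1, LEO1, IWS1 and TCEB1. The median log2 promoter ratio of the 7 was 0.09 in CFAP20-KO against WT (all genes 0.13; -0.065 for the list in a window of -500 to 1000 bp), -0.37 in CFAP20/CCNC-dKO against WT (all genes -0.24) and -0.19 between the knockouts (all genes -0.40). In CFAP20-KO against WT, 1 of 7 was at least 1.5-fold higher than the median ratio (SUPT5H) and 2 were lower (CCNT1 and TCEB1). In CFAP20/CCNC-dKO against WT, 1 was higher (SUPT5H) and 1 lower (CCNT1). Between the knockouts, 1 was higher in the double knockout (TCEB1) and 0 lower. With backgrounds of 15.8% to 20.8% in each direction, these counts are near the share found among all genes.

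The other list genes varied, and only the AFF1 ratios of the double knockout to the other libraries had intervals that exclude 1. AFF1, a scaffold of the super elongation complex that carries P-TEFb, had a promoter density of 4.70 for WT, 5.22 for CFAP20-KO and 2.87 for CFAP20/CCNC-dKO. The ratio of CFAP20/CCNC-dKO to WT was 0.611 (0.407 to 0.913) at AFF1, whose listed TSS lies 71977 bp downstream of its RefSeq start. TCEB1 (elongin C, current symbol ELOC) had 2.0, 0.996 and 2.33. Its CFAP20-KO value was the lowest, but the ratio to WT of 0.499 (0.167 to 1.05) includes 1. Among genes that act with CTR9 or with SPT5 during elongation, the PAF1 complex subunit LEO1 had 1.70, 2.39 and 1.30 and IWS1, a partner of SPT6, had 1.59, 1.70 and 1.51. CTR9 and LEO1 belong to the same complex; in CFAP20-KO, CTR9 was at 0.864 of WT and LEO1 at 1.41 (0.737 to 2.38), with overlapping intervals.

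**Figure D5:**
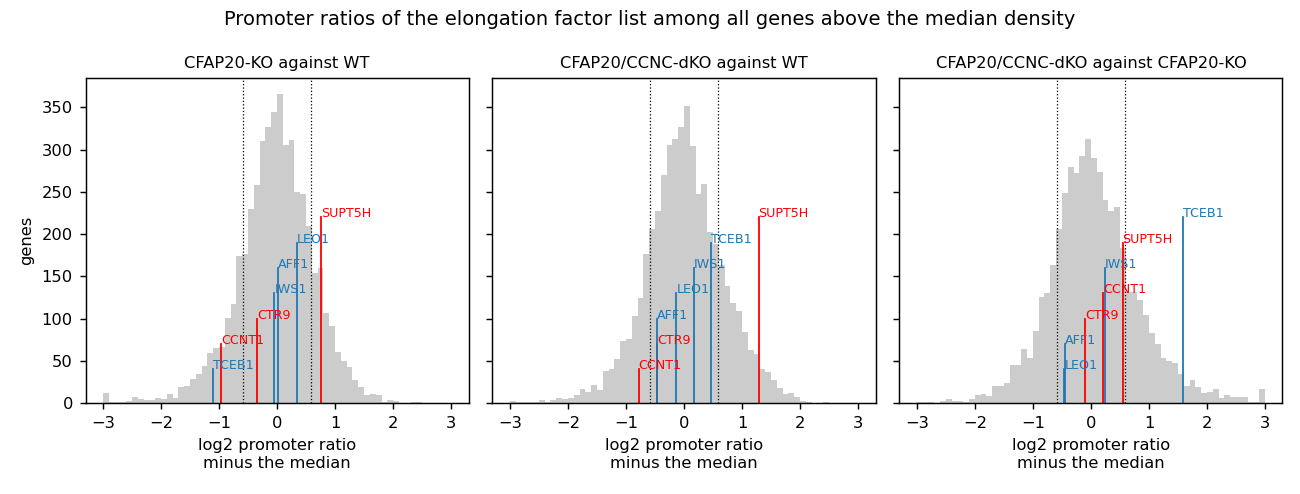
Number of genes (vertical axis, grey bars) by log2 promoter ratio minus the median (horizontal axis) in the 3 comparisons, over 4891 genes above the median density, with values beyond 3 drawn at 3; upright lines mark the 3 genes (red) and the other listed elongation factor genes (blue), their height has no meaning, and dotted lines mark 1.5-fold. SUPT5H is the highest of the 7 in both comparisons with WT, and CCNT1 is lowest in CFAP20/CCNC-dKO against WT.

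By the pattern of promoter and gene body density over the 3 libraries, each member was compared with 4394 genes, and the 3 most alike are named. These were genes of at least 5000 bp above the median density. The measure was the root mean square difference over 6 centred log2 values. For CCNT1 the closest were RP11-662I13.2 (0.149), PUS7 (0.152) and ZBTB26 (0.177), against a median of 0.792 over all genes. PUS7, for example, had promoter densities of 2.58, 1.29 and 1.08. For CTR9 they were REEP2 (0.134), RNASEH2B (0.136) and NGLY1 (0.157), against a median of 0.894. SUPT5H had no match as close: SSR3 (0.361), NDUFA4L2 (0.414) and HNRNPH1 (0.485) were the nearest, against a median of 1.49.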

How the data were processed

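RNAPII ChIP-seq coverage signal was deposited by the authors in bins: for replicate 1 of each genotype 5 kb on either side of listed TSSs in 10-bp bins, spike-in normalised per the file names, and for 3 WT replicates 100 kb on either side of 4784 origin centres in 200-bp bins, whose normalisation is not given in the sources used here. Per the labels' protocols, Drosophila chromatin was added at 40 ng to 28 µg of chromatin, and at 32.6 ng to 22 µg for the double knockout. The submitters' processing notes name Trim Galore 0.6.5, BWA 0.7.17, SAMtools 1.11 and HOMER 4.8.2, with builds GRCh38/hg38 and BDGP6. The catalogue number labelled for the WT antibody is the one given for the antibody to the spike-in, which leaves the WT label doubtful. The BrU-seq score was deposited by the authors in the TSS table, with no error. Values of 2 further per-sample columns stayed unused.

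Of 9944 listed TSSs, 9787 had values in all 3 libraries. Each value was a whole multiple of a step (0.0444 in WT, 0.181 in CFAP20-KO, 0.110 in CFAP20/CCNC-dKO; tolerance 0.02 steps). Isolated stretches held an even number of steps in 84.8%, 90.2% and 90.9% of cases, so 1 read pair was counted as 2 steps times the stretch length. Counting intervals are Clopper-Pearson intervals (scipy 1.17.1) from read pairs rounded to whole numbers, checked on simulated data. Before taking log2 ratios, 0.0427 (10% of the typical promoter density) was added as a pseudocount. Counts past 1.5-fold used 1 TSS per gene above the median of the mean density, relative to the median ratio. RefSeq promoters and GENCODE 44 gave annotated starts.

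Members and lists were chosen with earlier results of these data known. Named genes were the 3 members, the 2 highest and 2 lowest list genes per comparison, the 3 nearest listed genes on either side of each member and the 3 most alike; IWS1 was added as the remaining list gene, and 1 item is not reported here. Windows, pseudocount, filter, centring and flank scaling were varied.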

Additional observations from a re-analysis of the deposited data

How the results depend on the processing

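No paired analysis was possible because the genotypes share only replicate number 1, and no replicate could be left out with 1 library per genotype. Of 81 promoter ratios recomputed, 77 stayed within the counting interval of the value reported, as did 23 of 27 gene body ratios, and 18 of 18 promoter-to-body ratios stayed within their combined counting error. At this depth the intervals are wide, so a value that stays inside one can still move far. The exceptions at promoters were all SUPT5H against WT. For CFAP20/CCNC-dKO its log2 ratio of 1.04 became 0.15 when divided by the flank of the 10 nearest TSSs, 0.13 in the window at the RefSeq start, and -0.76 with both; it was 0.45 with a window of -500 to 1000 bp. For CFAP20-KO the value of 0.90 became 0.038 by that flank, 0.18 at the RefSeq start and -0.68 with both; the cause was not tested. The RefSeq start windows were chosen after seeing the data, and values divided by a flank have no counting interval of their own. In the gene body of SUPT5H the log2 ratio to WT went from 0.50 to -0.36 in CFAP20-KO and from 0.17 to -0.72 in CFAP20/CCNC-dKO when divided by that flank, and from 0.17 to 0.57 in CFAP20/CCNC-dKO with a body window of 1000 to 3000 bp. The CTR9 gene body log2 ratio of -0.74 between the knockouts turned to 0.35 with the same window, and -0.66 against WT became -0.18; the cause was not tested. With a promoter window of -500 to 1000 bp, genes at least 1.5-fold higher in CFAP20-KO against WT were 9.41% in place of 15.8%, and the list median was -0.065 in place of 0.09 there and -0.45 in place of -0.19 between the knockouts. Without centring, 11.4% were higher and 28.1% lower in CFAP20/CCNC-dKO against WT, and 10.7% and 38.5% against CFAP20-KO. A typical promoter above the median density held 57.5 read pairs in WT and 7.14 and 8.24 in the single and double knockout, so 2-fold differences at single genes in the knockouts are near the limit of what this depth can show.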
